A study of Arabidopsis thaliana with 2 samples.

Results

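The genes described here are the MAP kinase genes MPK1 to MPK20 and the MAP kinase kinase genes MKK1 to MKK10 of Arabidopsis thaliana, 30 of the 27444 nuclear protein-coding genes in the gene table used. They were chosen by locus name, and a gene was given every LHY region whose midpoint lay inside it or within 1 kb of either end. LHY, a MYB-like DNA-binding protein, is a core clock component whose level peaks around dawn. The regions came from chromatin immunoprecipitation and sequencing (ChIP-seq) on whole seedlings of the WS ecotype with an antiserum against full-length LHY. Wild-type plants were compared with lhy-21 plants, in which LHY is knocked out, and both were 2 weeks old and taken 2 h after dawn. There was 1 library per genotype, each made from 9 pooled immunoprecipitated samples, so no value has a replicate check and no test was made. Whole seedlings mix many cell types, and a region's strength in any of them cannot be told apart. The deposited list holds 14718 regions with more reads in wild-type than in lhy-21, and 36 of them belonged to these kinase genes.

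MAP kinase cascades pass a signal through 3 tiers of protein kinases, in which a MAP kinase kinase kinase (MAPKKK) phosphorylates a MAP kinase kinase (MKK), and the MKK phosphorylates a MAP kinase (MPK) in its activation loop. The MPK then acts on transcription factors, enzymes and cytoskeletal proteins. In plants the cascades carry immune, abscisic acid, ethylene, osmotic and developmental signals, among them those that set the spacing and opening of stomata. Both families are sorted by sequence into groups A to D. MPK groups A, B and C carry the TEY motif in the activation loop, and MPK group D carries TDY.

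Of the 30 genes, 21 had a region (70.0%), where 43.2% of all protein-coding genes had one by the same rule. The regions come from this very comparison, so the counts describe the list only. By family, 17 of 20 MPK genes (85.0%) and 4 of 10 MKK genes (40.0%) had a region, the latter share being near the 43.2% of all genes. Each region carries a score that is the authors' own value, of unstated scale, used here only to rank and describe regions within the list. The score ran from 2.00 to 213 over the list, with a median of 10.1 and an upper quartile of 22.3. Where a gene has several regions, its highest score is given. The highest scores of the 21 genes ran from 3.25 to 67.4 and their median was 12.96. Over every protein-coding gene with a region the median highest score was 14.2. At or above the upper quartile of the list there were 6 of the 30 genes (MPK1, MPK12, MPK7, MPK14, MKK9 and MPK8, in falling order), against 15.04% of all protein-coding genes. In the strongest 10% of regions there were 2 of the 30 genes, MPK1 and MPK12, against 6.46% of all genes. Among the 1000 strongest regions there was only MPK1, against 4.51% of all genes.

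**Figure D1:**
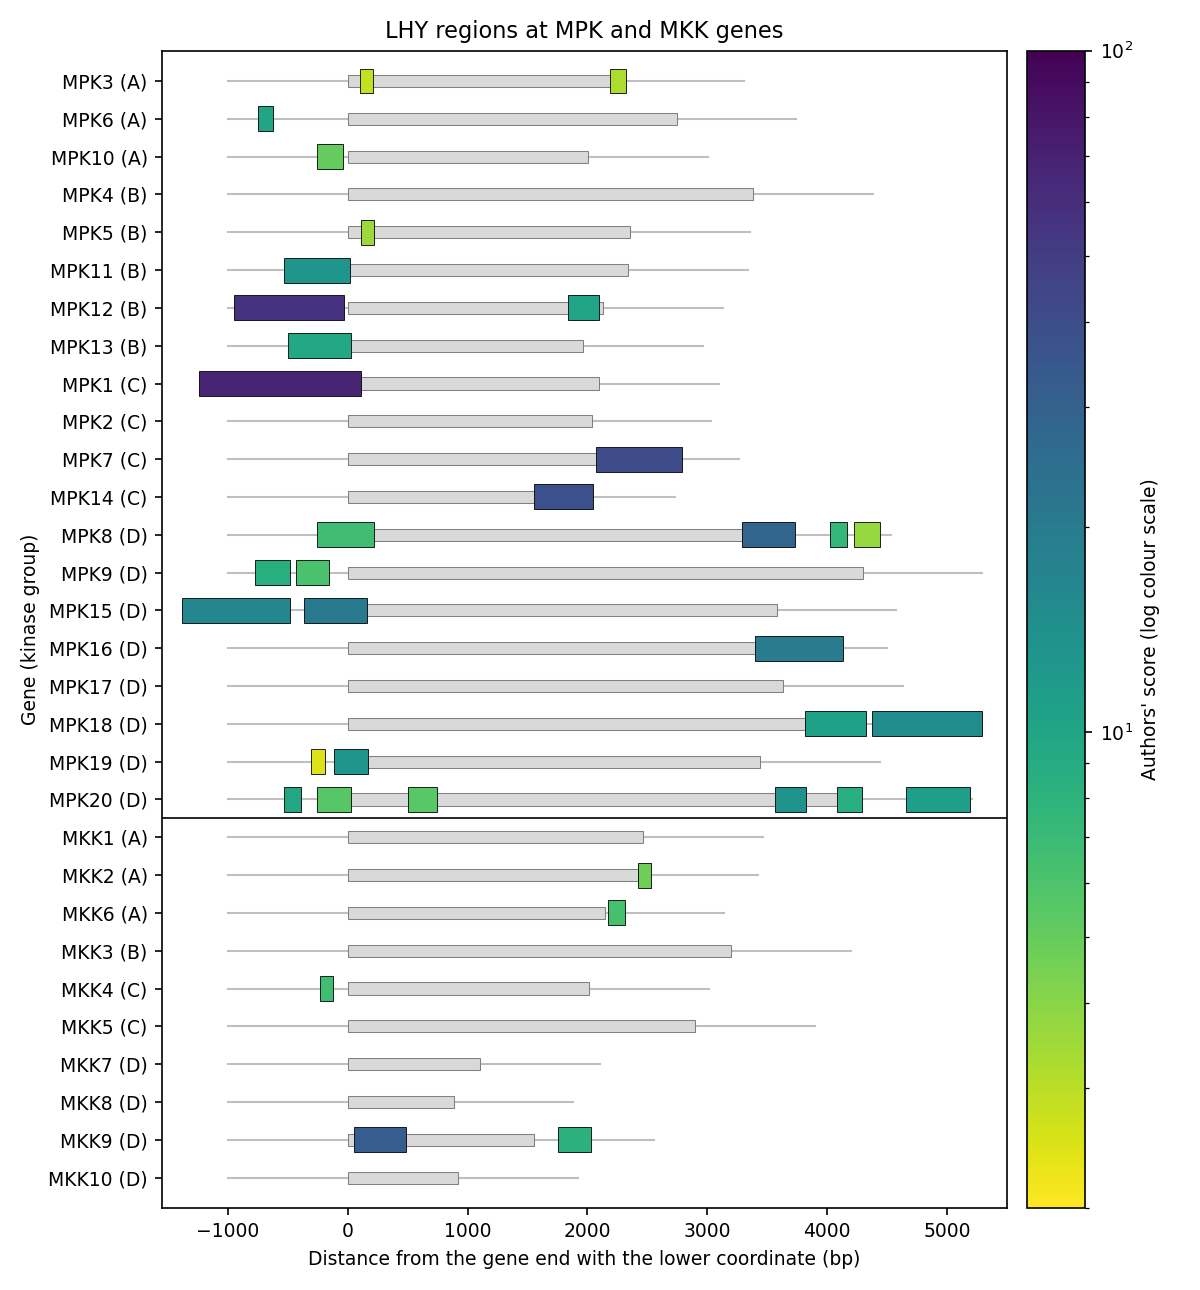
Map of the 30 kinase genes, each drawn from its end with the lower coordinate (0 bp) as a grey box with a line for the 1 kb to either side, and with LHY regions as boxes coloured by the authors' score. MPK20 carries 6 regions, and the darkest boxes, with scores of 67.4 and 57.5, stand beside MPK1 and MPK12.

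Group C held 3 of the 4 highest-scoring MPK genes. Its members MPK1 (AT1G10210), MPK2 (AT1G59580), MPK7 (AT2G18170) and MPK14 (AT4G36450) are activated through MKK3 in abscisic acid signalling. MPK1 had 1 region, scored 67.4, which ranked 719 of 14718. It lay on chromosome 1 from 3347841 to 3349190 (TAIR9), spanned 1350 bp and reached 109 bp into MPK1, with its midpoint 567 bp outside. The same midpoint was 376 bp outside WLIM1, which encodes an actin-bundling protein, so the region is nearer to WLIM1 than to MPK1. Given to the nearest gene only, or with a reach of 500 bp, MPK1 had none. MPK7 had 1 region, scored 41.0, on chromosome 2 from 7909843 to 7910561, with its midpoint 162 bp outside the gene. MPK14, its close relative, had 1 region, scored 38.5, on chromosome 4 from 17211604 to 17212098, centred 69 bp outside. Both of these regions overlap the end of the kinase gene with the higher coordinate, by 198 bp at MPK7 and 179 bp at MPK14. MPK2, the close relative of MPK1, had none, and its nearest region, scored 4.20, was 6413 bp away. Among the genes with a region, the 3 scores of group C do not overlap those of group A or group D. They overlap those of group B. Over all protein-coding genes, with or without a region, 9.4% had a highest score of 35 or more. Among protein-coding genes with a region only, the upper quartile of highest scores was 31.1. There MPK14, MPK7 and MPK1 stood at percentiles 80.6, 82.4 and 92.2. Each of the 3 regions has another gene in reach, and none is centred inside the kinase gene. With MPK2 counted, the group holds 3 genes with high scores and 1 gene without a region.

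Group B scores spread widely. MPK12 (AT2G46070), which acts in guard cells in the response of stomata to abscisic acid and carbon dioxide, had a region scored 57.5 on chromosome 2 from 18944988 to 18945902, ranked 1015. Its midpoint lay 492 bp outside MPK12 and 333 bp outside AT2G46060, and given to the nearest gene only it was lost to MPK12. At its other end, MPK12 had a second region, scored 9.92, that lies wholly inside the gene and 214 bp from BPS2. MPK11 (AT1G01560), activated by the bacterial flagellin peptide as its relative MPK4 (AT4G01370) is, had 1 region, scored 12.96, centred 260 bp outside MPK11 and 68 bp outside BPS1. MPK13 (AT1G07880), a target of MKK6, had 9.53 from a region centred 236 bp outside. MPK5 (AT4G11330) had 3.61, from a region of 111 bp that lies wholly inside the gene. MPK4, which restrains salicylic acid defence and is needed for cell division, had none within 1 kb. The 4 scores of group B thus range from below the lower quartile of the list (5.70) to the strongest 10%.

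Group A, which holds the best-known immune and stomatal kinases, had regions at all 3 genes, with scores below 10.1, the median of the list. MPK3 (AT3G45640) had 2 regions of 108 and 129 bp, scored 2.83 and 3.25, near the low end of the list. The former was centred 154 bp inside the gene and also inside the overlapping gene AT3G45645, and the latter 47 bp inside it and 50 bp outside NAXT1, a nitrate excretion transporter gene. MPK6 (AT2G43790), which shares much of its work with MPK3, had 1 region, scored 9.98, centred 691 bp outside it and inside the neighbouring gene AT2G43780. MPK10 (AT3G59790) had 1 region, scored 5.06, centred 150 bp outside. None of the 3 genes reached the genome-wide median of 14.2.

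Group D genes had a median highest score near that of all genes with a region. Of the 8 genes, MPK8 and MPK20 had at least 3 regions, beside 4.24% of all protein-coding genes. MPK9, MPK15, MPK18 and MPK19 had 2 each as the list divides them. With regions within 200 bp merged, only MPK8 and MPK20 had more than 1, while MPK9, MPK18 and MPK19 each had 1 and MPK15 had none. The share of all protein-coding genes with more than 1 region is not given here. Of 8 genes, 7 had a region, with highest scores from 8.46 to 28.5 and a median of 15.1, close to the genome-wide 14.2. Their 19 regions come to 0.411 per kb of gene and flanks, beside 0.306 in group A, 0.225 in group B, 0.186 in group C and 0.145 over all protein-coding genes. This order rests on how neighbouring regions are divided. With regions within 200 bp merged, group D had 12, at 6 of its 8 genes, or 0.259 per kb, which is below the unchanged 0.306 of group A, and all protein-coding genes had 0.129. MPK20 (AT2G42880) had 6 regions, scored 9.68, 5.58, 5.56, 13.9, 8.66 and 11.1 in order of coordinate on chromosome 2 from 17839635 to 17845359, with 3 of them centred inside the gene. Only 10 protein-coding genes (0.0364%) had as many as 6, the highest number of all. After merging of regions within 200 bp, 5 remained at MPK20, and it is the only protein-coding gene with 5 or more.

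MPK8 (AT1G18150), which is activated by wounding through MKK3 and calmodulin, had 4 regions, and 321 genes (1.17%) had at least 4. After merging MPK8 had 3, and 525 genes had at least 3, of which 69 had at least 4. The strongest, scored 28.5, was centred 21 bp inside the end with the higher coordinate, on chromosome 1 from 6247588 to 6248030. The others scored 6.68 at the opposite end, and 7.43 and 3.71 on the side of the neighbouring gene AT1G18160. MPK15 (AT1G73670), the relative of MPK8, had 2 regions on the same side, scored 20.4 and 16.5, with midpoints 103 and 932 bp outside. The latter is the region closest to the limit of 1 kb from within. MPK15 was the only kinase gene left without a region by merging, because 4 neighbouring regions joined into one of 3069 bp that reached into the gene and was centred 1374 bp outside it. Just beyond that limit lay a region scored 3.55 at 1200 bp from MPK13 and a region scored 23.3 at 1268 bp from MPK19 (AT3G14720). MPK16 (AT5G19010) had 1 region, scored 19.9, centred 270 bp outside. MPK18 (AT1G53510), a kinase of cortical microtubules, had 2 neighbouring regions scored 10.8 and 15.1. MPK19, its relative, had 12.9 for a region centred 24 bp inside its end and 2.47 for a region of 116 bp beside it. MPK9 (AT3G18040), which acts with MPK12 in guard cells, had 8.46 and 6.18 from a pair of regions on the same side. MPK17 (AT2G01450), linked to the number of peroxisomes, had none, and its nearest region was 18079 bp away.

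Gene length moved with the number of regions and its part in the counts was not tested. Group D genes are 3442 to 4296 bp long, beside 1734 to 3383 bp in the other MPK groups, and a longer gene has a wider window. Over all protein-coding genes, 31.7% of those under 1.5 kb, 46.2% of those from 1.5 to 3 kb and 51.6% of longer ones had a region, with means of 0.442, 0.688 and 0.780 regions per gene. In the same classes 0 of 3, 14 of 17 and 7 of 10 kinase genes had a region, with means of 0, 1.00 and 1.90 regions. After merging of regions within 200 bp, the kinase genes of 3 kb and longer had a mean of 1.20, beside 0.690 over all genes of that class. Of their 12 merged regions, MPK20 had 5 and MPK8 had 3. In that class 60.0% of the kinase genes then had a region, beside 51.3% of all genes. From 1.5 to 3 kb the shares after merging were 82.4% and 45.8%.

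**Figure D2:**
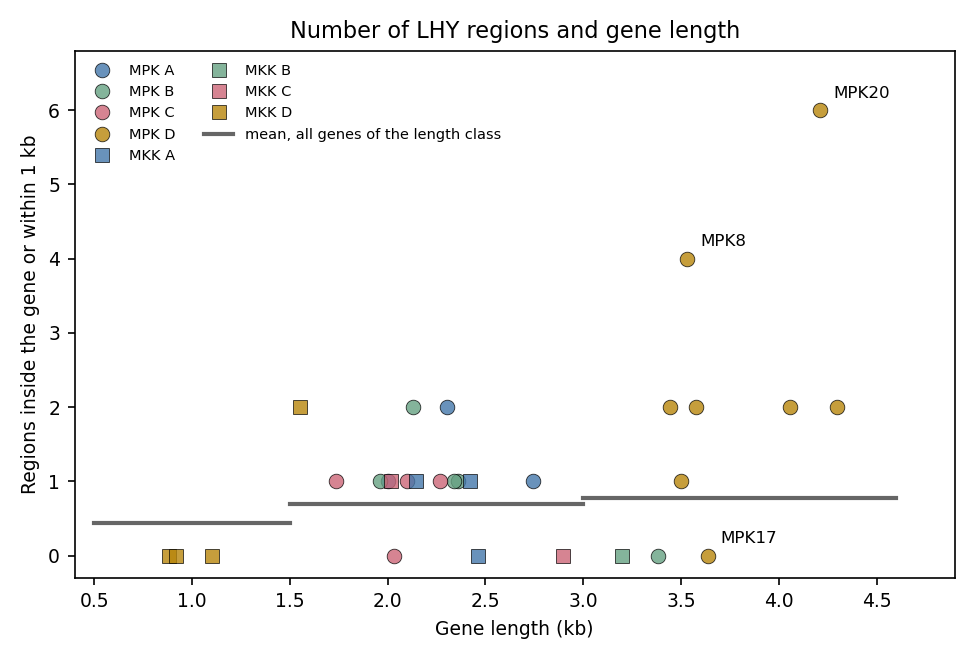
Number of LHY regions inside each kinase gene or within 1 kb of it (vertical axis) against gene length in kb (horizontal axis), with circles for MPK and squares for MKK genes, coloured by group, and grey lines for the mean over all protein-coding genes under 1.5 kb, from 1.5 to 3 kb and from 3 kb upward (the last line stops beyond the longest kinase gene). MPK20 with 6 and MPK8 with 4 regions stand above the means of 0.442, 0.688 and 0.780; with regions within 200 bp merged they have 5 and 3.

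The 10 MKK genes held 5 regions, or 0.126 per kb of gene and flanks, beside 0.318 for the MPK genes and 0.145 over all protein-coding genes. With regions within 200 bp merged, these densities were 0.126, 0.246 and 0.129. MKK9 (AT1G73500) alone of the MKK genes scored above 7.33, the lower quartile of highest scores over all genes with a region. MKK9, which acts upstream of MPK3 and MPK6 in ethylene signalling and leaf senescence, had a region scored 32.1 on chromosome 1 from 27639143 to 27639573, ranked 2422. It lies wholly inside MKK9, centred 267 bp from the end with the lower coordinate, and no other protein-coding gene was in reach. A second region, scored 8.16, was centred 338 bp outside the opposite end. MKK6 (AT5G56580), of the cytokinesis cascade, had 1 region of 134 bp, scored 6.37, centred 99 bp outside. MKK4 (AT1G51660), which acts with MKK5 (AT3G21220) above MPK3 and MPK6, had 6.67 from a region of 105 bp, and MKK2 (AT4G29810), which acts with MKK1 (AT4G26070) above MPK4, had 4.76 from a region of 110 bp. These 3 regions were each shared with a neighbouring gene, and they are among the narrowest of the 36, whose widths ran from 105 to 1350 bp with a median of 276 bp. MKK1, MKK3 (AT5G40440), MKK5, MKK7 (AT1G18350), MKK8 (AT3G06230) and MKK10 (AT1G32320) had none. MKK7, MKK8 and MKK10 are the shortest genes of the set, at 1103, 882 and 918 bp.

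**Figure D3:**
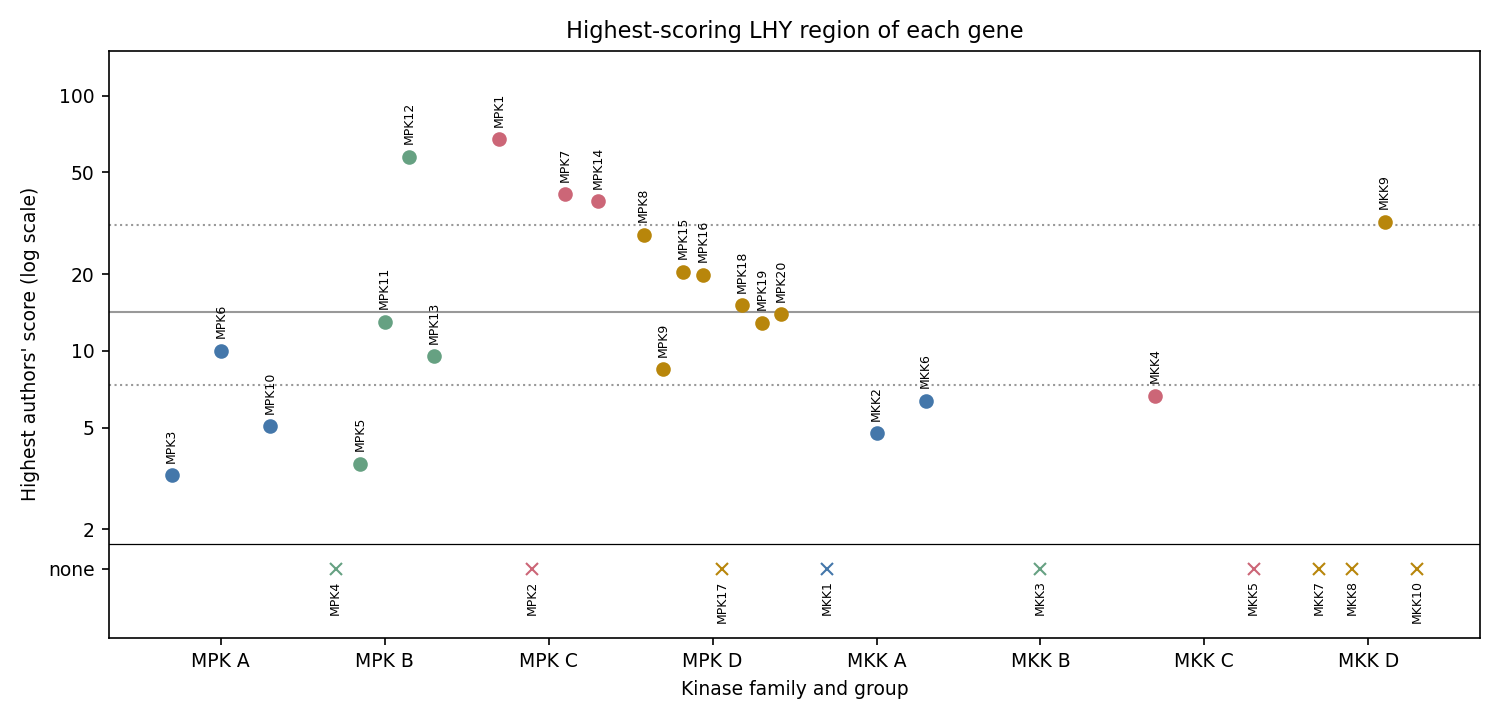
Highest authors' score of each kinase gene (vertical axis, log scale) by family and group, with crosses in the bottom strip for genes without a region, and with a solid grey line at the median (14.2) and dotted lines at the quartiles (7.33 and 31.1) over all protein-coding genes with a region. The group C genes MPK1, MPK7 and MPK14 lie above the upper dotted line together with MPK12 and MKK9.

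Near relatives were set side by side. Among 8 pairs, 3 had a region at both genes, 5 at only 1 gene of the pair and 0 at neither. Over all protein-coding genes, 43.2% had a region, but that is a share of single genes and not of pairs. A share over pairs of related genes was not computed. The pair counts rest on the reach of 1 kb. With a reach of 3 kb MPK4, MKK1 and MKK7 also had a region, and with 500 bp MPK1 had none. In the pairs with regions at both, the highest scores were 41.0 and 38.5 for MPK7 and MPK14, 28.5 and 20.4 for MPK8 and MPK15, and 15.1 and 12.9 for MPK18 and MPK19. Taking the region closest to a gene end instead gave 6.68 for MPK8 and 10.8 for MPK18. In the other pairs MPK1 had 67.4 and MPK2 none, MKK9 had 32.1 and MKK7 none, MPK11 had 12.96 and MPK4 none, MKK4 had 6.67 and MKK5 none, and MKK2 had 4.76 and MKK1 none. A gene without a listed region is not shown to lack LHY, since the caller's threshold and the read depth are not given in the sources used here.

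Positions of the regions were set beside those over all protein-coding genes. Of the 36 regions, 10 had their midpoint inside the kinase gene (27.8%), beside 29.9% over all 17477 pairs of a region and a gene in reach. The median distance to the nearer gene end was 243 bp, beside 249 bp over all pairs, and 17 regions (47.2%) were within 200 bp of an end, beside 43.7% over all pairs. Another protein-coding gene was in reach of 16 regions (44.4%, beside 58.6% over all pairs). Of the 6 highest-scoring genes, 5 share their strongest region with a neighbour and MKK9 does not. Which gene such a region belongs to cannot be told from these data. The gene table gives no strand, so upstream and downstream sides could not be distinguished, and exons, introns and untranslated regions were not separated.

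The cascades were then followed upward, with 18 MAPKKK genes of the MEKK class. Of these, 13 had a region (72.2%, beside 43.2% of all genes), with a median highest score of 16.7. With a reach of 500 bp, 9 of the 18 had one, MAPKKK18 not among them, beside 36.5% of all genes. The strongest was MAPKKK17, scored 144, for a region on chromosome 2 from 13799963 to 13800727 that ranked 24 of 14718 and was centred 246 bp outside the gene. MAPKKK18, its relative, scored 114 on chromosome 1 from 1468303 to 1469005, ranked 110 and centred 887 bp outside. No other protein-coding gene was in reach of either. Both kinases are induced by abscisic acid and act through MKK3 on group C MPKs. Next came MAPKKK3, of an immune cascade, with 46.0 for a region centred inside the gene. ANP3, of the cytokinesis cascade, had 20.6 for a region that AT3G06035 also has in reach.

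Scores along the tiers of 4 known cascades are given next, beside 43.2% of all protein-coding genes with a region and 15.04% at or above the upper quartile of the list. These cascades were put together after the values were seen, so their counts are descriptions only, and MPK4 stands in 2 of them. In the abscisic acid cascade, 5 of 7 genes had a region, all 5 at or above the upper quartile of the list. These were MAPKKK17, MAPKKK18, MPK1, MPK7 and MPK14. MKK3, the middle tier, had none, and its nearest region lay 10852 bp away. MAPKKK17 and MAPKKK18 are the highest-scoring of the 18 MAPKKK genes. They were put in this cascade with their scores known, so its counts follow in part from the choice of members. MPK8, which is also activated through MKK3, was left out. MAPKKK13, MAPKKK14, MAPKKK15, MAPKKK19, MAPKKK20 and MAPKKK21, which stand in none of the 4 cascades, scored at most 17.5, below that quartile. These left-out genes are no independent contrast to the cascade. MAPKKK16 had no region. In the stomatal and immune cascade of YDA, MAPKKK3, MAPKKK5, MKK4, MKK5, MPK3 and MPK6, 6 of 7 genes had a region, of which MAPKKK3 alone was above that quartile. The MEKK1 cascade had a region at MKK2 alone of its 4 genes MEKK1, MKK1, MKK2 and MPK4. In the cytokinesis cascade 3 of 5 genes had one, with 20.6 at ANP3, 6.37 at MKK6 and 4.44 at ANP1. The regions of MPK1, MPK7 and MPK14 each have a neighbouring gene in reach, and those of MAPKKK17 and MAPKKK18 do not.

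**Figure D4:**
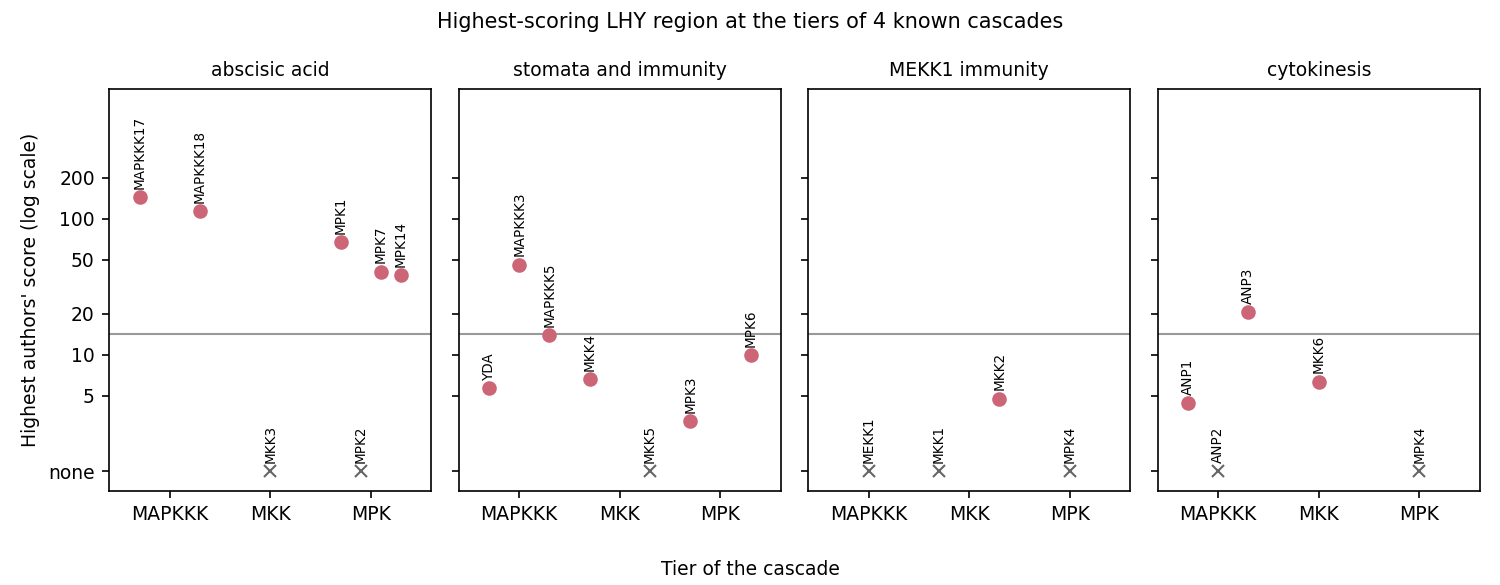
Highest authors' score (vertical axis, log scale) at each tier of 4 known cascades (horizontal axis), with crosses for genes without a region and a grey line at 14.2, the median of protein-coding genes with a region. In the abscisic acid panel the 5 genes with a region score from 38.5 to 144, and MKK3 and MPK2 have none.

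Genes that switch the kinases off or receive their signal were also counted. Of 10 phosphatase genes, 4 had a region (40.0%), near the 43.2% of all protein-coding genes. In this list the top values were 64.4 for AT1G07160, 29.5 for PHS1, whose product acts on MPK18 at microtubules, 16.5 for IBR5, whose product acts on MPK12, and 2.06 for AT1G67820. MKP1, MKP2, DSPTP1, PTP1, AP2C1 and PP2C5 had none. Of 10 substrates and partners, 8 had a region (80.0%), beside the same 43.2%. The highest score there was at ERF104, an ethylene response factor released from MPK6 in immune signalling, with 93.3. ERF6, phosphorylated by MPK3 and MPK6, had 33.7, ACS2, an enzyme of ethylene synthesis stabilised by the same kinases, had 29.1, and EIN3 had 15.6. The strongest regions of ERF104, ERF6, ACS2 and EIN3 each had another protein-coding gene in reach.

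**Figure D5:**
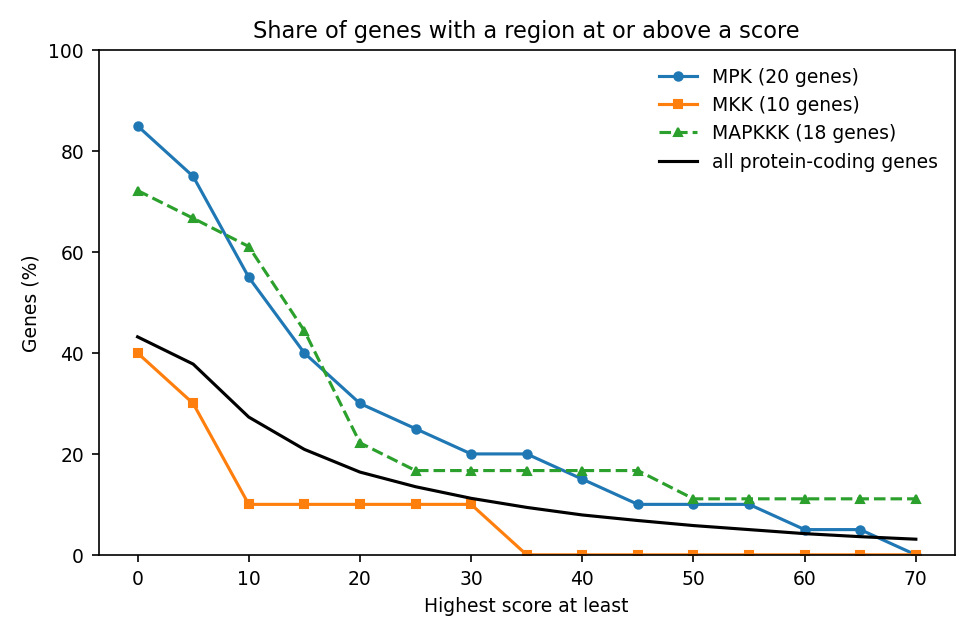
Percentage of genes (vertical axis) whose highest score is at or above the value on the horizontal axis, for MPK, MKK and MAPKKK genes and for all protein-coding genes. At a score of 10 the shares are 55.0% of MPK, 10.0% of MKK and 61.1% of MAPKKK genes against 27.3% of all genes, and at 70 they are 0%, 0%, 11.1% and 3.1%.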

How the data were processed

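Per the submitters' processing notes, the reads were handled with Bowtie and with MACS2 2.0.10.09132012 on TAIR9. Per the labels' design text, a region has more reads in the wild-type than in the lhy-21 library. The deposited list gives a start, an end and a score for each region; the score is the authors' value, and its scale, the filters and the read depth are not given in the sources used here. Region positions are TAIR9, counted from 1. Gene ends and symbols came from a RefSeq table of assembly TAIR10.1, whose nuclear sequence is that of TAIR9. All 30 genes matched by locus name. In that table MKK1 has the symbol MEK1. Midpoints were assigned to protein-coding genes with Python 3.11.15 and pandas 2.3.3, with a reach of 1000 bp, after a test on simulated regions. A region counts for every gene in reach.

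The members, lists and alternatives were chosen with earlier results of these data known. Counts and scores are therefore descriptions beside all protein-coding genes, without tests. All 30 genes are named, in full where the score reaches the upper quartile, with the 4 highest of each pathway list. The planned search for sequence motifs was left out, as sequence was not used here.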

Additional observations from a re-analysis of the deposited data

How the results depend on the processing

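The number of kinase genes with a region, 21 of 30, was 19, 24, 21, 17 and 20 with a reach of 500 bp, a reach of 3 kb, any overlap of the region, the nearest gene only and regions within 200 bp merged, all within 1.5 times. The nearest gene only takes the region from MPK1, MPK6, MPK11 and MKK4, and a reach of 500 bp takes it from MPK1 and MPK6. Merging takes it from MPK15 and brings the regions of group D from 19 to 12, those of all 30 genes from 36 to 29 and those of MPK genes from 31 to 24, with groups A, B and C unchanged (these counts of regions were added after the data were seen). MPK12 falls to 9.92 with the nearest gene only. With the midpoint inside the gene (reach of 0 bp) 7 genes remained, 6 MPK and 1 MKK, with 1, 2, 0 and 3 in MPK groups A, B, C and D, 0 in MKK groups A and C, and 5 MAPKKK and 2 phosphatase genes. At or above the median score of the list there were 12, 11 MPK and 1 MKK, with 0 and 2 in MPK groups A and B and 0 in MKK groups A and C. In the strongest 10% there were 2 genes, both MPK, 1 each in groups B and C, 0 in the other MPK groups and 0 MKK, with 2 MAPKKK, 1 phosphatase and 1 substrate gene. Among the 1000 strongest there was 1 MPK gene, of group C, 0 MKK and 0 in groups A, B and D, with 2 MAPKKK, 1 phosphatase and 1 substrate gene. MKK group C had 0 with the nearest gene only, and MKK group D had 2 with 3 kb. Counting only regions with no other gene in reach, chosen after the data were seen, left 11 genes, 10 MPK and 1 MKK, against 19.0% of all genes.

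The share of all protein-coding genes with a region, 43.2%, was 36.5% with 500 bp, 60.3% with 3 kb, 16.1% with 0 bp, 45.0% with any overlap, 27.2% at or above the median score, 6.46% in the strongest 10%, 4.51% among the 1000 strongest and 32.6% with the nearest gene only. By gene length, also chosen after the data were seen, it was 31.7%, 46.2% and 51.6%. The median highest score of kinase genes, 12.96, was 9.92 where the closest region replaced the strongest, 12.9 with 500 bp, 20.2 with 3 kb, 13.9 with any overlap and 12.9 with the nearest gene only. Of 153 alternative counts, shares and medians, 86 stayed within 1.5 times (counts), the 95% exact binomial interval (shares) or at the same value (medians). The sets counted overlap, and MKK group B, 1 gene without a region in any setting, counts as unchanged each time. The tally therefore does not measure how stable the results are. Of 105 alternative highest scores of single genes, 82 were the same, 17 were another value and 6 had no region. The promoter motif alternative was not run. No paired analysis was possible because each genotype has 1 library.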

Other observations

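Some regions lay between 1 and 3 kb from a kinase gene, out of its reach but in that of a neighbour. These were named after their values were seen. MPK4 has at 2326 bp a region scored 39.8 (chromosome 4 from 564335 to 564847), which is centred 169 bp outside BPS3. MPK9 has at 2311 bp a region scored 75.2, ranked 543, centred inside AT3G18050. MPK19 has at 2136 bp a region scored 36.6, centred 401 bp outside AT3G14710. MPK13 has at 1533 bp a region scored 24.4, centred inside APX1, which encodes a cytosolic ascorbate peroxidase. MKK1 has at 2888 bp a region scored 12.9, centred 448 bp outside ABI1, a phosphatase gene of abscisic acid signalling.

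The group B genes MPK4, MPK11 and MPK12 each have a BYPASS gene nearby, BPS3, BPS1 and BPS2. BPS1 is known for holding back a root-derived signal that arrests shoot growth. A region was centred near each BYPASS gene, scored 39.8 at 169 bp from BPS3, 12.96 at 68 bp from BPS1 and 9.92 at 214 bp from BPS2. This was seen after the values were known, and 43.2% of all protein-coding genes had a region within 1 kb. The regions scored 12.96 and 9.92 are also those counted for MPK11 and MPK12, and BPS1 has a further region, scored 20.0, centred 309 bp outside it and 2885 bp from MPK11.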
